A study of Homo sapiens with 6 samples.

Results

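Interferon-stimulated genes are switched on when type I interferon binds its receptor, the kinases JAK1 and TYK2 phosphorylate STAT factors such as STAT2, and these join IRF9 in a complex named ISGF3 that binds a repeated GAAA element in promoters. The products block virus entry, bind foreign RNA, attach the ubiquitin-like protein ISG15 to other proteins or carry the signal further. In tumour cells the programme is known from irradiation, among other stresses. The 47 genes described here were taken by symbol from the deposited table of 61280 gene rows. They include the IFI, IFIT, IFITM, MX, GBP and SAMD9 genes, ISG15 with its enzymes UBE2L6, HERC5, HERC6 and USP18, PARP9, PARP14 and DTX3L, the TRIM and SP100 family genes with PML, and the factors STAT2, IRF1, IRF7 and IRF9. Single genes such as BST2, RSAD2, SHFL and LGALS3BP complete the set, which leaves out the RNA sensors of the OAS and RIG-I group. Each of the 47 had 1 row.

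RNA was sequenced from MDA-MB-231, an established human triple-negative breast cancer line, in 3 libraries of untreated cells (control) and 3 libraries of irradiated cells, which were given a 20 Gy X-ray dose and then kept in culture for 24 h. How long the untreated cells were cultured is not given in the labels, so time in culture and irradiation cannot be told apart. Whether numbered replicates were separate cultures is not stated either, and the spread behind each p-value may therefore be technical. Values are TPM, a length-corrected share of each library, so the number of reads is unknown, and fewer cells with a transcript cannot be told apart from less RNA per cell. Changes are irradiated minus control on the scale of log2(TPM + 1), a scale that compresses the changes of weakly expressed genes, and "called" means an adjusted p under 0.05 in limma over all 14621 rows tested.

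Between 14248 and 14417 rows reached 1 TPM in the control libraries and between 14592 and 14889 in the irradiated ones, and mitochondrially encoded genes held 10.2% to 12.3% of the TPM. The line's markers VIM, CD44, AXL, MSN, CAV1 and ANXA1 were present in every library, and their summed level was 3398 to 3467 TPM in the controls and 2857 to 2989 TPM after irradiation. Of 9 leukocyte markers, 3 were listed at 0 in all libraries and 7 stayed under 1 TPM, among them CD3E, CD14 and ITGAM. The summed leukocyte level was 60.0 to 67.5 TPM in the controls and 95.6 to 133 TPM after irradiation, nearly all of it from CD68, a lysosomal protein gene, with 40.4 TPM of PTPRC in irradiated replicate 1 alone. Endothelial and fibroblast markers summed to at most 1.64 and 14.6 TPM. The oestrogen and progesterone receptor genes ESR1 and PGR stayed at or below 0.39 TPM. EPCAM and GATA3, listed as low in this line, stood at 8.32 to 11.27 and 3.7 to 4.96 TPM. The part of these markers in the results was not tested.

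Irradiated cells carried more of many of these transcripts, by modest amounts. Of the 47 genes, 44 passed the filter on low values; 13 of them were called higher and 1 lower. Among the tested members that was 29.5% higher and 2.27% lower, where 6.53% of all tested rows were called higher and 4.07% lower, 10.6% in all. The 13 were SAMD9L, IFI44L, IFI6, GBP1, UBE2L6, GBP2, IRF9, IFI35, SHFL, STAT2, PARP9, IFITM2 and IFITM3, and IFIT2 was the fall. Of the 13, IFI44L passed the filter only through its irradiated values. The median change of the 44 was 0.21, against 0.03 over all tested rows, and 35 of the 44 changes (79.5%) were positive, against 54.9% of all tested rows. All 3 irradiated values lay above all 3 control values for 23 of the 44 and below them for 2, where 20.4% and 14.5% of all tested rows were separated in those directions. The count of members called higher fell to 4 on omission of control replicate 1 or of control replicate 2. It was 7 when control replicate 3 was omitted, 8 for irradiated replicate 1 and 5 for irradiated replicate 3, and it was 6 with no filter on low values. Median-ratio scaling called 11 members higher and 1 lower, and over all rows it turned 955 higher and 595 lower calls into 778 and 852.

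CMPK2, a mitochondrial nucleotide kinase gene, XAF1, a pro-apoptotic gene, and TRIM22, an antiviral ligase gene, were too low to test, with control means of 0, 0.0033 and 0.13 TPM and irradiated means of 0.0067, 0.030 and 0.38 TPM.

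**Figure D1:**
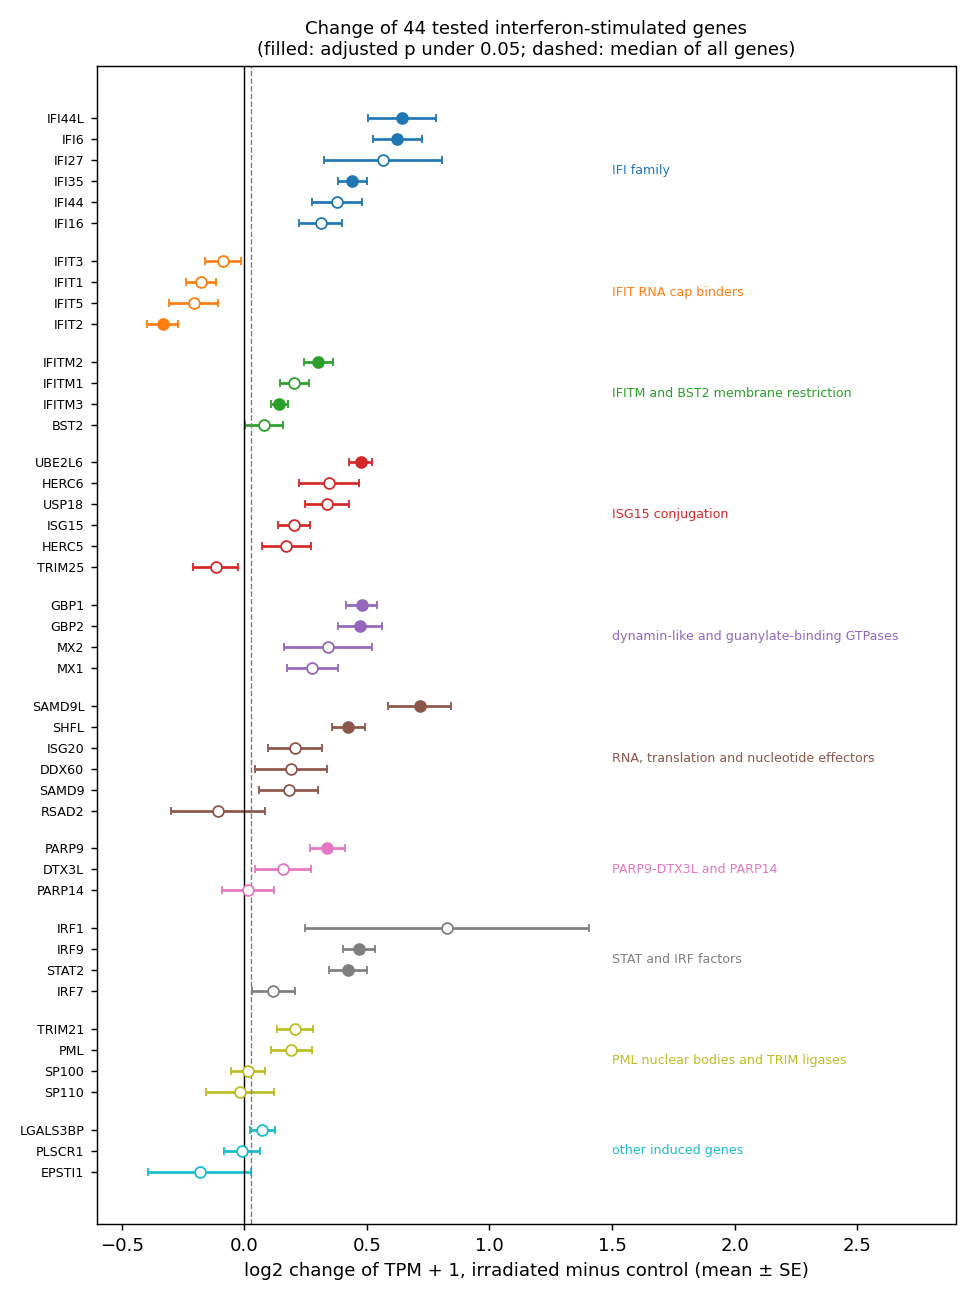
Change of each of the 44 tested members on the log2(TPM + 1) scale (horizontal axis, irradiated minus control, mean ± SE, 3 libraries per group), grouped and coloured by role. Filled points are the 14 called members, and the dashed line is the median of all tested rows (0.03); the 4 IFIT genes lie left of 0 and the 6 IFI genes right of it.

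Promoter sequences show what the members share apart from their levels. RefSeq promoters on GRCh38.p14, running from 250 bases before to 50 after each transcription start, were found for 39 members, in 54 promoters. No promoter was found for IFIT2, the member called lower, or for GBP2 and IFITM2, which were called higher. The same held for IRF7, MX2, PML, TRIM22 and USP18. A pair of GAAA blocks separated by any 2 bases, the core that ISGF3 and IRF factors are known to bind, was searched on both strands. It occurred in 31 of the 54 member promoters (57.4%) and in 3.57% of all 35114 promoters of that length. The 31 are not all separate sites, since IFI27, IFI44 and PLSCR1 hold the same pairs in overlapping promoters. PARP9 and DTX3L hold the same pair on opposite strands. A GAS-type element, TTCNNNGAA, which reads the same on both strands and is known from STAT dimers, occurred in 14 of the 54 (25.9%) and in 7.66% of all. The following windows, which end 10 bases after the start, hold the GAAA pair in called members, ordered by the size of the change, with the pair in capitals (read as TTTC pairs where it lies on the other strand). IFIT1, chosen after its values were seen, is added as a member that holds the pair and lay lower after irradiation. These matches are descriptions of letters and not evidence of binding.
IFI44L promoter, chr1:78620273-78620457, plus strand: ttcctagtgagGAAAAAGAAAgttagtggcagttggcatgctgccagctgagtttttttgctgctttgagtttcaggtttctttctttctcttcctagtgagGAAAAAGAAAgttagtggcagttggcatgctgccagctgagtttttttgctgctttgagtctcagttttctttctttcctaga
IFI6 promoter, chr1:27672183-27672367, minus strand: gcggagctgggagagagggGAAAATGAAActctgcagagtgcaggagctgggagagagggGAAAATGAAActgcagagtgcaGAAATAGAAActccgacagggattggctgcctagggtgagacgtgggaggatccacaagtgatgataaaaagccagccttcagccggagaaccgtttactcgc
GBP1 promoter, chr1:89065199-89065383, minus strand: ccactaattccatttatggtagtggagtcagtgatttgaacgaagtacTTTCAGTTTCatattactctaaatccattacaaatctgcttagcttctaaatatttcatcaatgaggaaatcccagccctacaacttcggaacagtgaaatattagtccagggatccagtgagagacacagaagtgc
SHFL promoter, chr19:10086142-10086326, plus strand: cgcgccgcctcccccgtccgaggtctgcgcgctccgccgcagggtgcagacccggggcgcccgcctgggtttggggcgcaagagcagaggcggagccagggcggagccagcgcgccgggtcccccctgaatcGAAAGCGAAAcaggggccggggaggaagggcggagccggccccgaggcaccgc
PARP9 promoter, chr3:122564291-122564475, minus strand: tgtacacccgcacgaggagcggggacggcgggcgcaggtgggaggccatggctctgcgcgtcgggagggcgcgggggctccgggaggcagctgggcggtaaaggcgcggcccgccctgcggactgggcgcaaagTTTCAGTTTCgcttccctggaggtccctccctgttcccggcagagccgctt
IFITM3 promoter, chr11:320851-321035, minus strand: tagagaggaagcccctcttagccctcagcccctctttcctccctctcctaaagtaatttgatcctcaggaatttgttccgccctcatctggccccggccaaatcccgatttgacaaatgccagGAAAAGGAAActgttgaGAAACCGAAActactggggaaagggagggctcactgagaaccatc
IFIT1 promoter, chr10:89392448-89392632, plus strand: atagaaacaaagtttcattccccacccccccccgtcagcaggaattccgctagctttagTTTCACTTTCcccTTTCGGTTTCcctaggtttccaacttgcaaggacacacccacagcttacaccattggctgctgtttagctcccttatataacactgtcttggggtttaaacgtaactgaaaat

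The IFI44L window held the pair at 2 places, beginning at positions -164 and -73 from the start. IFI6 held it at 3 places, beginning at positions -156, -115 and -93. IFIT1 held 2 copies on the other strand, at positions -116 and -103, and GBP1 1 copy at -127. IFITM3, SHFL and PARP9 held it close to the start, at -52 and -35, at -43 and at -41. Called and uncalled members both held the pair. Of the 11 members called higher for which a promoter was found, 6 held it. So did 20 of the 26 that were tested and not called. The pair shared by PARP9 (called) and DTX3L (not called) is counted on both sides. UBE2L6, STAT2, SAMD9L, IFI35 and IRF9 were called higher and did not hold it in these promoters, of which IFI35 and IRF9 held TTCNNNGAA. The median change was 0.19 for tested members with the pair and 0.42 for those without it.

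**Figure D2:**
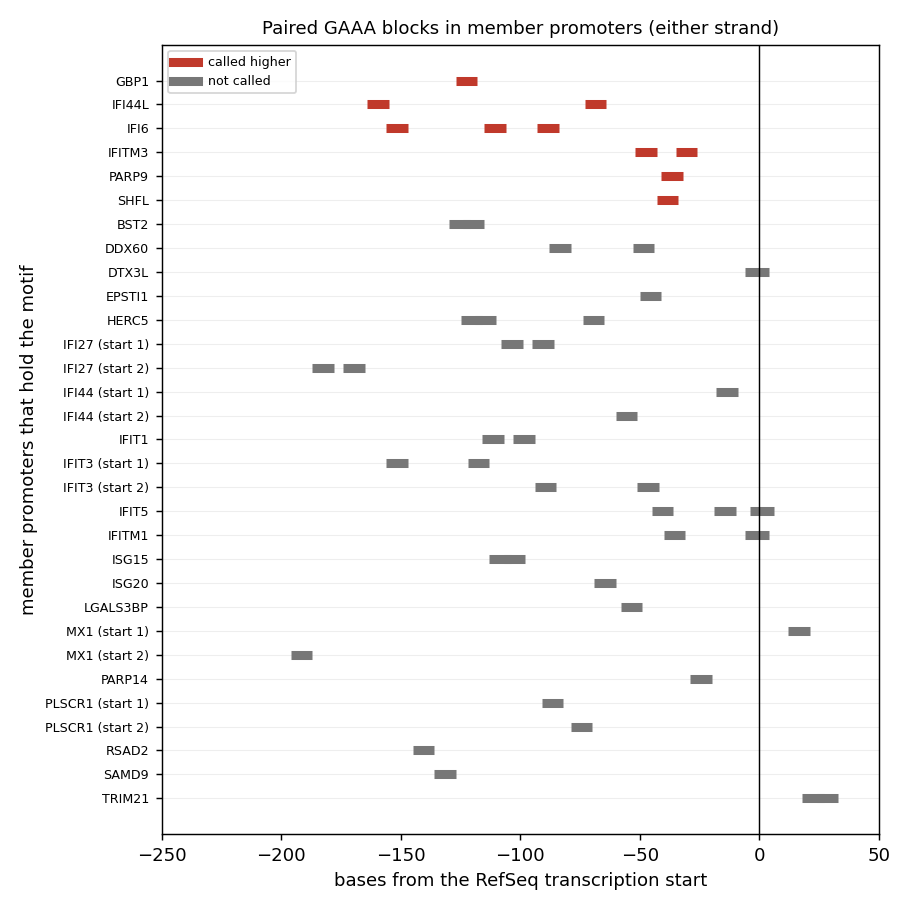
Position of each pair of GAAA blocks (bars; horizontal axis, bases from the RefSeq transcription start, either strand) in the 31 member promoters that hold it, 1 row per promoter. Red marks members called higher and grey those not called; all red bars lie upstream of the start, and grey bars lie on both sides of it.

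The transcription factors differed among themselves: 2 of the 4 members were called higher, where 6.53% of all tested rows were. STAT2, a subunit of ISGF3, stood at 14.18, 14.75 and 14.85 TPM in the controls and at 20.97, 18.23 and 20.56 TPM after irradiation, a rise of 1.37-fold between means (log2 change 0.42 ± 0.08 SE, adjusted p = 0.0202). IRF9, the DNA-binding subunit of ISGF3, stood at 25.31, 27.88 and 25.30 TPM in the controls and at 36.19, 38.05 and 35.34 TPM after irradiation (log2 change 0.47 ± 0.06 SE, adjusted p = 0.00921). Neither gene's groups overlapped, and IRF9 was called under all 14 alternatives. Of 12 other STAT and IRF genes outside the members, 9 were tested, 1 was called higher and 8 were not called. The 1 was IRF3, which acts below the nucleic acid sensors, with 126 ± 4.58 TPM in controls and 147 ± 1.65 TPM after irradiation (SD, n = 3). Its log2 change was 0.22 ± 0.04 SE (limma adjusted p = 0.0243), and whether this call holds under the alternatives is not given here. IRF7, the interferon-induced amplifier of interferon transcription, was not called (12.5 to 13.0 against 12.7 to 15.3 TPM; log2 change 0.12). Among the omissions, only that of irradiated replicate 2 left the STAT2 call standing. Omission of any other library raised its adjusted p to between 0.0542 and 0.0771, and dropping the filter raised it to 0.0502. With replicate number as a block the STAT2 call was lost as well. An unnamed protein-coding row that overlaps IRF9 on the same strand stood at 5.39 to 7.78 TPM in the controls and 7.82 to 8.72 TPM after irradiation, and whether reads were divided between the rows was not tested.

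IRF1, an activator that also responds to interferon gamma and NF-kB, had the largest estimated change of the members and no call. Its level was 15.39, 10.61 and 29.56 TPM in control replicates 1, 2 and 3, and 50.06, 49.39 and 11.61 TPM in irradiated replicates 1, 2 and 3. Irradiated replicates 1 and 2 thus lay above every control, while irradiated replicate 3 lay below 2 of the 3 controls (log2 change 0.83 ± 0.58 SE, 95% interval -0.53 to 2.18, adjusted p = 0.398). The genes GBP1 and GBP2, well known IRF1 targets, stood at 28.84 and 35.15 TPM in irradiated replicate 3, inside or above the range of the other 2 irradiated libraries. A link between the level of IRF1 and these genes was not tested. The antisense transcript IRF1-AS1, which overlaps IRF1 on the other strand, stayed between 0.98 and 1.60 TPM in all 6 libraries. A longer unnamed protein-coding row on that strand stood at 3.55 to 4.64 TPM in the controls and 2.12 to 4.14 TPM after irradiation.

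**Figure D3:**
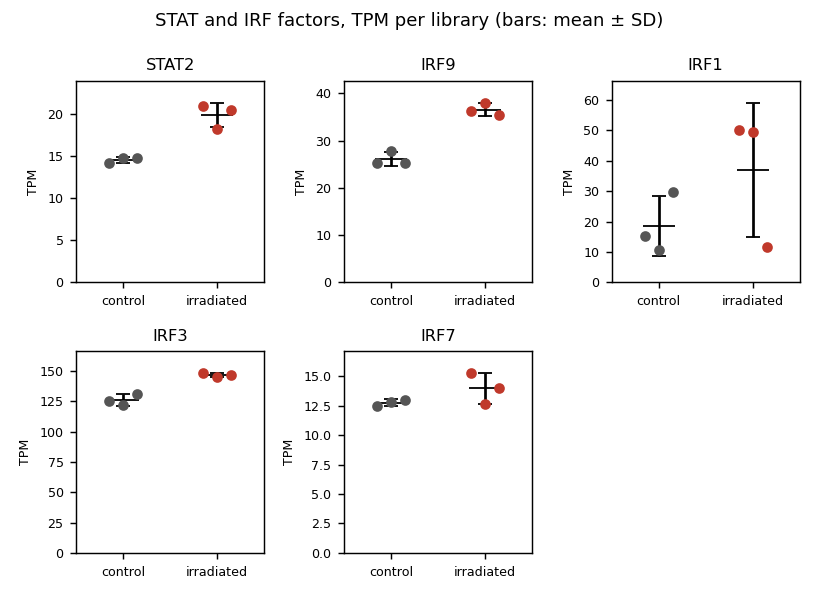
TPM per library (vertical axes, each from 0) of 5 STAT and IRF factors in control (grey) and irradiated (red) cells; points are replicates 1 to 3 from left to right and bars are mean ± SD. STAT2, IRF9 and IRF3 separate the groups, IRF7 overlaps, and IRF1 splits the irradiated libraries into 49.39 and 50.06 against 11.61 TPM.

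Above the factors, transcripts of the listed interferon genes were barely present. Of 12 interferon genes listed, among them IFNB1, IFNA1, IFNG and IFNL1, 10 were listed at 0 in all libraries and no value exceeded 0.17 TPM. All 9 receptor and kinase genes were tested and none was called in limma at an adjusted p under 0.05. IFNAR2, a subunit of the type I receptor, lay higher in every irradiated library (14.33 to 14.75 against 16.16 to 18.51 TPM; log2 change 0.25, adjusted p = 0.0797). IFNGR2 and IL10RB were also separated upward, with log2 changes of 0.16 and 0.22. TYK2, the more abundant kinase, overlapped between groups (75.5 to 84.7 against 81.6 to 103 TPM; log2 change 0.20, adjusted p = 0.189). JAK1 had nearly equal means (39.1 and 39.8 TPM; log2 change 0.02, 95% interval -0.13 to 0.17). At an unadjusted p under 0.05, 3 of these 9 genes passed, namely IFNAR2, IFNGR2 and IL10RB, where 28% of all tested rows passed (16.9% higher and 11.1% lower). A further 9 genes were listed as inhibitors: SOCS1, SOCS3, PIAS1, PTPN1, PTPN2, PTPN6, PTPN11, IRF2BP1 and IRF2BP2. Whether interferon induces them in these cells was not tested. SOCS3, which blocks JAK kinases, stood at 30.4 ± 0.732 TPM in controls (SD, n = 3) and fell to 24.5 ± 0.943 TPM (log2 change -0.30 ± 0.06 SE, limma adjusted p = 0.0245). PTPN6, the phosphatase SHP-1, was at 7.22 ± 0.961 TPM and rose to 12.0 ± 1.44 TPM (log2 change 0.67 ± 0.13 SE, adjusted p = 0.0218). Of the 9 inhibitors, 8 had negative changes and 1 a positive one (median -0.17), where 54.9% of all tested rows were positive. Separated downward were 4 of them and upward 1, where 14.5% and 20.4% of all tested rows were. These counts depend on the choice of genes: the member USP18, described below, is not in the list and was separated upward (log2 change 0.34).

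ISG15 is attached to proteins by a chain of E1, E2 and E3 enzymes, and among these members the E2 gene rose. UBE2L6, the conjugating E2 enzyme of ISG15 (ENSG00000156587; chromosome 11, 57551656 to 57568284, GRCh38), had the smallest adjusted p of the members. It stood at 57.69, 57.73 and 58.73 TPM in the controls and at 82.13, 77.73 and 83.48 TPM after irradiation, 1.40-fold higher between means (log2 change 0.48 ± 0.05 SE, adjusted p = 0.00375), and was called under all 14 alternatives. The controls spanned about 1 TPM, and all irradiated values lay well above them. UBA7, the activating E1 enzyme that precedes UBE2L6 and is not a member, had 8.24 ± 0.775 TPM in controls and rose to 14.9 ± 1.57 TPM (log2 change 0.78 ± 0.11 SE, adjusted p = 0.00921). ISG15 itself, the modifier, stood at 224.57, 223.85 and 239.76 TPM in the controls and 246.77, 289.94 and 257.95 TPM after irradiation. Its groups did not overlap, but the change was not called (log2 change 0.20, 95% interval 0.05 to 0.36, adjusted p = 0.0894).

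USP18, which removes ISG15 and also shuts off the type I receptor, lay just outside the threshold. It stood at 11.96, 10.32 and 12.44 TPM in the controls and 14.46, 15.38 and 14.67 TPM after irradiation, with no overlap (log2 change 0.34 ± 0.09 SE, adjusted p = 0.0560). The ligase HERC5 was not called (7.49 to 9.13 against 8.87 to 9.47 TPM; log2 change 0.17), nor was the related HERC6 (8.48, 10.14 and 10.34 against 13.14, 10.68 and 13.90 TPM; log2 change 0.35, adjusted p = 0.118), whose groups did not overlap. TRIM25, a ubiquitin ligase that acts on RIG-I and ISG15 targets, was the member of this group with a negative change (-0.12, adjusted p = 0.455). Of the 6 genes of the group, then, 1 was called higher, 5 had positive changes and 4 were separated upward. Of all tested rows, 6.53% were called higher, 54.9% had positive changes and 20.4% were separated upward.

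The IFI genes all had positive changes, with a median of 0.50. IFI6, a membrane protein of the endoplasmic reticulum that restricts flavivirus replication, stood at 46.56, 42.94 and 56.11 TPM in the controls and 69.81, 79.16 and 76.02 TPM after irradiation, 1.55-fold higher between means (log2 change 0.62 ± 0.10 SE, adjusted p = 0.0140). IFI35 stood at 42.07, 38.10 and 41.73 TPM in the controls and 53.65, 55.24 and 57.58 TPM after irradiation (log2 change 0.44 ± 0.06 SE, adjusted p = 0.00871) and was called under all 14 alternatives. Both genes lay higher in every irradiated library than in any control. IFI44L was weakly expressed, at 0.89, 0.71 and 0.61 TPM in the controls and 1.74, 1.61 and 1.77 TPM after irradiation (log2 change 0.64 ± 0.14 SE, adjusted p = 0.0313). Its control values all lay under 1 TPM, so IFI44L passed the filter on low values only through the irradiated libraries. Because it lies near the pseudocount, its ratio of means of 2.32 exceeded what the log2 scale shows.

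IFI44, which neighbours IFI44L on chromosome 1, was more abundant, at 33.49, 31.75 and 33.89 TPM in the controls and 51.00, 38.76 and 40.80 TPM after irradiation, separated but not called (log2 change 0.38 ± 0.10 SE, adjusted p = 0.0570). IFI16, a nuclear DNA sensor, was likewise separated and not called (15.15, 12.84 and 12.81 against 16.74, 16.70 and 17.80 TPM; log2 change 0.31, adjusted p = 0.0639). IFI27, at 0.43 to 1.69 TPM in the controls and 1.59 to 2.05 TPM after irradiation, overlapped between groups (log2 change 0.57, adjusted p = 0.176). Thus 3 of 6 were called higher and 5 of 6 separated upward, where 6.53% and 20.4% of all tested rows were. The IFI6 call was lost on omission of control replicate 1, control replicate 2 or irradiated replicate 3 (adjusted p of 0.0501 to 0.0585) and when rows were not filtered (0.0548). The IFI44L call was lost on omission of each library in turn (0.0525 to 0.107) and when rows were not filtered (0.0947). It was also lost after quantile normalization (0.0654) and with replicate number as a block (0.0876).

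The IFIT genes, whose products bind viral RNA by its cap or end and some of which act as a complex, had lower means after irradiation. All 4 lie within 137 kb on chromosome 10 (89283694 to 89421001, GRCh38) and all 4 had negative changes, with a median of -0.19. IFIT2 stood at 34.40, 35.76 and 32.68 TPM in the controls and 26.95, 26.03 and 28.04 TPM after irradiation, 0.788 times the control mean (log2 change -0.33 ± 0.06 SE, adjusted p = 0.0205). IFIT1, which binds caps without ribose methylation, stood at 21.63, 20.91 and 21.33 TPM in the controls and 19.27, 18.34 and 18.61 TPM after irradiation. Its groups were separated, and the change was not called (log2 change -0.18, 95% interval -0.32 to -0.03, adjusted p = 0.113).

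IFIT3, which stabilises the IFIT complex, was the most abundant, at 47.79, 45.91 and 40.66 TPM in the controls and 43.18, 40.07 and 43.01 TPM after irradiation, with overlap (log2 change -0.09, 95% interval -0.26 to 0.08). IFIT5 also overlapped (27.36 to 33.44 against 23.55 to 28.73 TPM; log2 change -0.21, adjusted p = 0.227). Of the IFIT genes 1 was thus called lower and 0 higher in limma (at an unadjusted p under 0.05, 2 lower and 0 higher), and no test compared the IFIT genes with the other members. Of all tested rows, 4.07% were called lower and 11.1% were lower at that unadjusted p. The IFIT2 call was lost on omission of control replicate 1 or 2 or of irradiated replicate 1 or 3 (adjusted p of 0.0511 to 0.0886). With replicate number as a block it was lost as well (0.0745). An unnamed row annotated as antisense that overlaps the start of IFIT2 on the same strand stood at 69.70, 88.46 and 90.43 TPM in the controls and 91.09, 100.27 and 94.05 TPM after irradiation, separated upward and not called (log2 change 0.21, adjusted p = 0.229). Whether reads were divided between these rows was not tested. The gene LIPA spans IFIT1, IFIT2 and IFIT3 on the other strand, and the strand setting of the counting is not given in the sources used here.

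**Figure D4:**
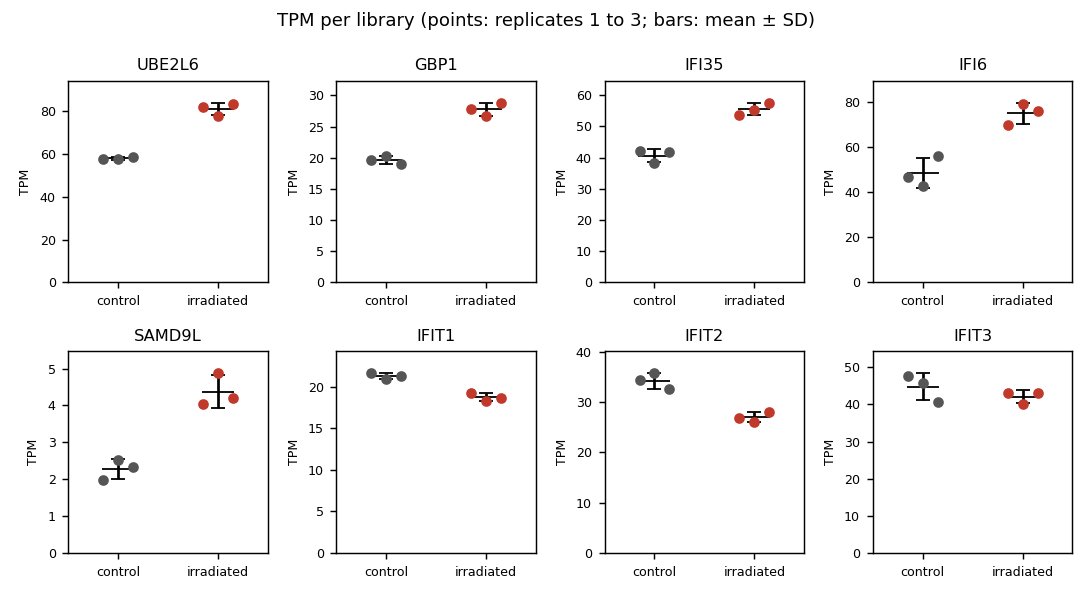
TPM per library (vertical axes, each from 0) of 8 members in control (grey) and irradiated (red) cells; points are replicates 1 to 3 from left to right and bars are mean ± SD. The 5 called rises are separated upward, IFIT1 and IFIT2 are separated downward, and IFIT3 overlaps.

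The IFITM genes, which stop viruses from fusing with cell membranes, were abundant, and IFITM3 had the highest level of the 47 genes. It stood at 714.22, 703.67 and 695.92 TPM in the controls and 763.17, 797.28 and 773.64 TPM after irradiation, a rise of 1.10-fold (log2 change 0.14 ± 0.03 SE, adjusted p = 0.0420). IFITM2 stood at 157.66, 166.67 and 178.24 TPM in the controls and 209.41, 216.52 and 194.52 TPM after irradiation, 1.23-fold higher (log2 change 0.30 ± 0.06 SE, adjusted p = 0.0256). IFITM1 was separated and not called (102.44, 110.71 and 103.42 against 125.68, 113.59 and 126.25 TPM; log2 change 0.20, adjusted p = 0.0646). These 3 neighbours on chromosome 11 (307631 to 327537) belong to 1 family, and the gene models of IFITM1 and IFITM2 overlap on the same strand. How reads were divided among them was not tested, and their single values are uncertain.

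BST2, the tetherin that holds budding viruses on the cell, overlapped between groups (74.7 to 91.3 against 84.9 to 92.0 TPM; log2 change 0.08). An unnamed antisense row within IFITM2 stood at 289.94 to 486.99 TPM in the controls and 324.25 to 368.88 TPM after irradiation, with no call. The IFITM2 call was lost on omission of control replicate 1 or 2 or of irradiated replicate 1 or 2 (adjusted p of 0.0545 to 0.0939). It was also lost when rows were not filtered (0.0775), after median-ratio scaling (0.0639), in eBayes without trend (0.0702) and with replicate number as a block (0.0756). The IFITM3 call was lost on omission of each library in turn (0.0680 to 0.132). It was also lost without the filter, after median-ratio scaling, in eBayes without trend and with replicate number as a block (0.0934 to 0.236). Its log2 change was 0.04 after GC and length correction (adjusted p = 0.547).

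Of the large GTPases, both guanylate-binding proteins rose. GBP1, a guanylate-binding protein that coats intracellular bacteria, stood at 19.60, 20.33 and 19.05 TPM in the controls and 27.76, 26.77 and 28.84 TPM after irradiation, 1.41-fold higher (log2 change 0.48 ± 0.06 SE, adjusted p = 0.00814), and was called under all 14 alternatives. GBP2 stood at 27.46, 26.61 and 23.01 TPM in the controls and 33.53, 39.37 and 35.15 TPM after irradiation (log2 change 0.47 ± 0.09 SE, adjusted p = 0.0224). Both rose to about the same degree, from neighbouring positions on chromosome 1. Of the dynamin-like GTPases, which trap viral nucleocapsids, MX1 was separated and not called (4.67, 4.84 and 4.77 against 6.55, 5.53 and 5.90 TPM; log2 change 0.28, adjusted p = 0.131), and MX2 overlapped (1.80 to 2.88 against 2.52 to 3.66 TPM). The GBP2 call was lost on omission of each control or of irradiated replicate 3 (adjusted p of 0.0543 to 0.0723). It was also lost when rows were not filtered (0.0682) and with replicate number as a block.

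Among effectors on RNA, translation and nucleotides, SAMD9L and SHFL rose. SAMD9L, a repressor of translation, stood at 1.97, 2.52 and 2.33 TPM in the controls and 4.05, 4.88 and 4.20 TPM after irradiation, 1.93-fold higher between means (log2 change 0.72 ± 0.13 SE, adjusted p = 0.0189). Its neighbour and paralog SAMD9 overlapped (8.37 to 8.76 against 8.22 to 11.15 TPM; log2 change 0.18, adjusted p = 0.367). SHFL, which stops programmed ribosomal frameshifting, stood at 15.69, 15.45 and 15.99 TPM in the controls and 21.02, 20.66 and 22.64 TPM after irradiation (log2 change 0.42 ± 0.07 SE, adjusted p = 0.0138). SAMD9L and SHFL were separated in every library, with the more abundant SHFL changing less.

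ISG20, an RNA exonuclease, was separated by a narrow margin and not called (9.0, 9.79 and 10.38 against 10.45, 10.67 and 13.17 TPM; log2 change 0.21). The helicase DDX60 (2.24 to 2.59 against 2.31 to 3.38 TPM) and RSAD2, the viperin that makes a chain-terminating nucleotide (1.15 to 2.20 against 1.24 to 1.73 TPM), overlapped. RSAD2 neighbours CMPK2, which was listed at 0 in 5 of 6 libraries. The SAMD9L call was lost on omission of each control or of irradiated replicate 3 (adjusted p of 0.0518 to 0.0712). It was also lost when rows were not filtered (0.0709) and with replicate number as a block. The SHFL call was lost on omission of control replicate 1 or 2 or of irradiated replicate 3 (0.0511 to 0.0656), and with replicate number as a block.

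PARP9 and DTX3L encode partners in one ubiquitin ligase complex and lie on opposite strands of chromosome 3, with overlapping gene models. PARP9 stood at 11.36, 11.71 and 11.16 TPM in the controls and 14.39, 14.89 and 14.80 TPM after irradiation (log2 change 0.34 ± 0.07 SE, adjusted p = 0.0283). DTX3L had control values of 11.50, 11.71 and 11.46 TPM and irradiated values of 14.65, 10.83 and 13.86 TPM (log2 change 0.16, adjusted p = 0.415). Irradiated replicates 1 and 3 thus lay above the controls for both genes, and irradiated replicate 2 did so for PARP9 alone. PARP14, a mono-ADP-ribosyl transferase nearby, showed the same dip in irradiated replicate 2 (10.68, 11.63 and 11.67 against 12.54, 9.87 and 12.16 TPM; log2 change 0.02). The PARP9 call was lost on omission of any library but irradiated replicate 2 (adjusted p of 0.0707 to 0.0945), and with replicate number as a block.

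Of 4 tested genes of the PML nuclear bodies and TRIM ligases, 0 were called in limma, with 1, TRIM21, at an unadjusted p under 0.05. Of all tested rows, 10.6% were called and 28% reached that unadjusted p. TRIM21, a cytosolic antibody receptor and ligase, was separated (15.70, 15.12 and 15.25 against 18.96, 16.90 and 17.85 TPM; log2 change 0.21, adjusted p = 0.111), and so was PML, the scaffold of the bodies (21.50 to 22.65 against 22.97 to 28.25 TPM; log2 change 0.19). SP100, the most abundant of this group, stood at 35.32, 31.46 and 33.86 TPM in the controls and 36.00, 32.80 and 32.94 TPM after irradiation, with a log2 change of 0.02 (95% interval -0.14 to 0.17). SP110 overlapped (14.29 to 16.65 against 12.04 to 17.46 TPM). Of the rest, LGALS3BP, a secreted galectin-binding glycoprotein, was abundant and overlapped, at 298.94, 289.70 and 325.26 TPM in the controls and 311.79, 325.72 and 324.14 TPM after irradiation (log2 change 0.07). PLSCR1, a phospholipid scramblase (43.01 to 46.85 against 40.80 to 47.23 TPM), and EPSTI1 (2.09 to 3.24 against 1.42 to 2.76 TPM) overlapped as well.

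Seen by library, the median member lay higher in irradiated replicates 1 and 3 than in irradiated replicate 2. The median member stood 0.29, 0.14 and 0.26 above the control mean in irradiated replicates 1, 2 and 3, on the log2 scale, against 0.05, -0.03 and 0.07 for all tested rows. In those libraries 34, 27 and 32 of the 44 tested members lay above every control, and 4, 10 and 3 lay below every control. As shares, 77.3%, 61.4% and 72.7% of tested members lay above every control, against 42.4%, 32.0% and 44.6% of all tested rows. Below every control lay 9.09%, 22.7% and 6.82% of members, against 25.9%, 41.3% and 23.5% of all tested rows. SP110, DTX3L, SAMD9, DDX60 and HERC6 were the members with the largest deficit in irradiated replicate 2 against the other irradiated libraries (0.31 to 0.46 lower). Across the 44 members this difference had a correlation of -0.17 with log2 transcript length and 0.23 with GC content. The correlation was -0.49 and 0.5 in the 22 shorter of them, and -0.15 and 0.15 in the 22 longer. Across all rows with a length it was -0.21 and 0.20; these genes share the same libraries, and the part of length and GC in the deficit was not tested. Without irradiated replicate 2 the median change of the members was 0.27 in place of 0.21. The summed level of the 47 genes, which the abundant members dominate, was 2280 to 2374 TPM in the controls and 2643, 2685 and 2631 TPM in irradiated replicates 1, 2 and 3, so that by this measure irradiated replicate 2 was the highest; without IFITM3 it was 1577 to 1678 TPM in the controls and 1880, 1888 and 1858 TPM.

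**Figure D5:**
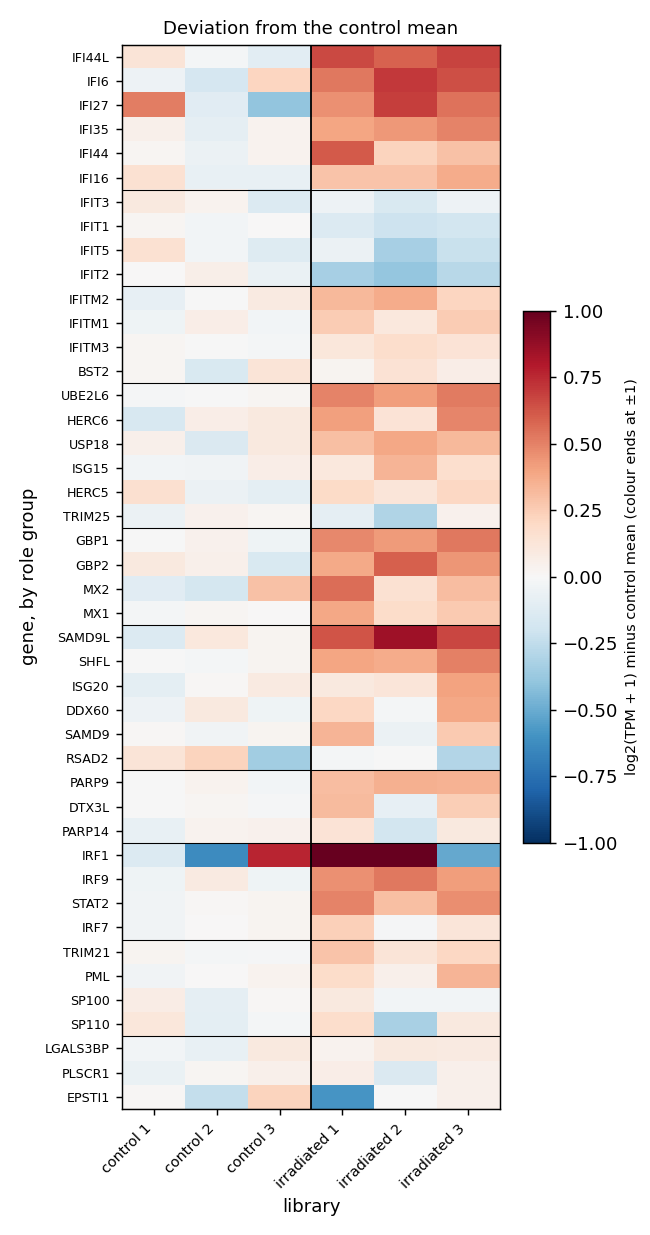
Deviation of each tested member (rows, grouped by role) from its control mean on the log2(TPM + 1) scale in each library (columns); red is higher, blue lower, and colours end at ±1. The irradiated columns are mostly red, the IFIT rows are blue, irradiated replicate 2 is pale or blue where SP110, DTX3L and SAMD9 are shown, and IRF1 is red in irradiated replicates 1 and 2 and blue in replicate 3.

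Members that lie next to each other on a chromosome are described by sign, with 79.5% of tested members and 54.9% of all tested rows positive, so that a shared positive sign is the common case. The IFITM genes, IFI44L with IFI44, GBP1 with GBP2, HERC5 with HERC6, SAMD9 with SAMD9L, MX1 with MX2, and PARP9 with DTX3L and PARP14 each had positive changes throughout, and the IFIT cluster had negative ones. SP100 and SP110 lay on either side of 0. Neighbours did not share the call in most cases: GBP1 with GBP2 and IFITM2 with IFITM3 were the neighbours called together.

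Other interferon genes that are not members were read for comparison. Of 14 RNA sensor and OAS genes, 13 were tested and 2 were called, both higher: DHX58, the regulator LGP2, had 5.30 ± 0.534 TPM in controls and rose to 10.0 ± 0.845 TPM (log2 change 0.81, adjusted p = 0.00871) and OAS1, which makes the activator of RNase L, had 9.88 ± 0.547 TPM and rose to 16.2 ± 1.03 TPM (log2 change 0.66, adjusted p = 0.00740). Of 39 further interferon-induced genes, 30 were tested, 8 were called higher and 0 lower in limma (2 lower, ETV7 and LAP3, at an unadjusted p under 0.05). Of all tested rows, 6.53% were called higher and 4.07% lower, and 11.1% were lower at that unadjusted p. The largest were CASP1, the inflammatory caspase (3.72-fold between means, log2 change 0.83, adjusted p = 0.0260), UBA7, described above, IFI30, a lysosomal thiol reductase (means of 77.2 and 128 TPM, log2 change 0.72, adjusted p = 0.00375), and TRIM5, which binds retroviral capsids (means of 9.8 and 16.1 TPM, log2 change 0.66, adjusted p = 0.00779). The control values of CASP1 all lay under 1 TPM (0.28, 0.5 and 0.43 TPM). CASP1 thus passed the filter on low values only through the irradiated libraries (1.23, 1.91 and 1.36 TPM). ETV7 passed it only through the controls (1.06, 1.56 and 1.55 TPM). The median change was 0.17 in the sensor list and 0.16 in the other. With the interferon, receptor and kinase, other STAT and IRF, and listed inhibitor genes added, the pathway genes outside the members numbered 95. Of these, 70 were tested, with 12 called higher and 1 lower and a median change of 0.13.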

How the data were processed

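The deposited values, 1 TPM table for 61280 gene rows and 6 libraries, were made by the authors and carry 2 decimals. HISAT2, StringTie, RSEM and hg38 are named per the submitters' processing notes; their versions and roles are not stated there. Libraries were made with a TruSeq kit, per the labels' protocols. TPM keeps no read depth, so precision was read from replicate spread. Of the rows, 20671 carry no symbol.

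Groups and replicate numbers came from the sample titles. Rows reaching 1 TPM in 3 or more libraries were tested on log2(TPM + 1) with limma 3.58.1 in R 4.3.3 (eBayes with a mean-variance trend, two-sided, Benjamini-Hochberg over 14621 rows, threshold 0.05). The 95% intervals are per gene and unadjusted. No test was made over the gene list. The values of 1 other pathway gene are not reported here. The members and lists were chosen with earlier results of these data known. The scripts were tested on simulated tables. Values in every library are given for called members, for the most abundant member of each role group and for up to 8 separated, uncalled members of at least 5 TPM; of other pathway lists, up to 4 called genes or the 2 most abundant are named. IFIT1, IFIT5, IRF1, IFNAR2, IFNGR2, IL10RB, ETV7, LAP3, PTPRC, CD68, the overlapping rows and every gene of the closing section were singled out after their values were seen.

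Gene models, transcript length and GC content are from GENCODE 29 on GRCh38, the assembly of hg38 (97.4% of tested rows had a length), and promoters from RefSeq on GRCh38.p14. The alternatives changed the pseudocount (0.1), the filter (none, or 5 TPM), the scaling (median-ratio or quantile), the variance model (no trend), added the replicate block, removed cubic trends on GC content and length, or omitted each library.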

Additional observations from a re-analysis of the deposited data

How the results depend on the processing

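Of the 14 called members, UBE2L6, GBP1, IFI35 and IRF9 kept their calls under all 14 alternatives, 10 lost theirs under at least 1, and 0 changed sign. Of the uncalled members 6 gained a call under at least 1 alternative: USP18 and IFI44 with the filter of 5 TPM, IFI16 after GC and length correction, IFITM1 and ISG15 after quantile normalization, and IFI44, IFITM1 and HERC6 without irradiated replicate 2. Among uncalled members 8 changed sign (BST2, EPSTI1, LGALS3BP, PARP14, PLSCR1, RSAD2, SP100 and SP110). Without a filter, 497 rows were called in place of 1550, and 6 members were higher in place of 13. In eBayes without trend 993 rows were called. Same-numbered libraries deviated from their group means with correlations of 0.031, -0.055 and -0.025, so the numbers are not taken as pairs; with the replicate block 362 rows were called, 5 members were higher and 0 lower. With 1 library left out, 306 to 1390 rows were called, 4 to 13 members were higher, 0 to 1 were lower, and the member median was 0.19 to 0.27; these fits have fewer samples. The GAAA pair was in 2.91% of the promoters of tested genes, against 3.57% of all, while the looser form GAAANNGAA was in 63% of member promoters, against 8.11% of all. The cause of the other shifts was not tested. Read depth is unknown for TPM, so what it limits cannot be stated.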

Other observations

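Several interferon-related genes outside the members had lower means after irradiation without a call, and those named were picked for this direction. Of the 70 tested pathway genes outside the members, 44 had positive changes and 26 negative ones. Separated upward were 27 and downward 7 of the 70, where 20.4% and 14.5% of all tested rows were. EIF2AK2, the RNA-activated kinase PKR, had 25.6 ± 1.16 TPM in controls and 21.2 ± 2.15 TPM after irradiation (SD, n = 3; log2 change -0.26, limma adjusted p = 0.0991), with no overlap. PTPN2, a phosphatase that acts on JAK1, had 27.8 ± 2.69 and 22.5 ± 1.06 TPM (log2 change -0.29, limma adjusted p = 0.0708), with no overlap. ETV7, a repressor of interferon-stimulated genes, had 1.39 ± 0.286 and 0.747 ± 0.162 TPM (log2 change -0.45, limma adjusted p = 0.121). Its irradiated values all lay under 1 TPM (0.92, 0.6 and 0.72 TPM), so ETV7 passed the filter on low values only through the controls. The interferon-induced chemokine genes CXCL10 and CXCL11 had mean levels of at most 0.0533 TPM in both groups. CD274, which encodes PD-L1, had 8.13 ± 0.602 and 7.95 ± 1.49 TPM (log2 change -0.04, 95% interval -0.36 to 0.28).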
